A study of Mus musculus with 8 samples.

Results

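The genes described here are 10 that encode chaperones and helpers of the endoplasmic reticulum (ER) or components of the response that sets their amount: Hspa5, Hsp90b1, Hyou1, Calr, Canx, Dnajc3, Dnajb9, Sdf2l1, Xbp1 and Herpud1. They were chosen by name, as chaperones and textbook targets of the transcription factors XBP1 and ATF6, from 23366 genes in the deposited tables, and all 10 were among the 11721 genes with enough counts to be tested. The libraries are labelled as primary pancreatic beta cells of NOD mice, a strain prone to autoimmune diabetes, aged 8 to 10 weeks. Cells had been sorted into a population called top and a population called bottom, each with 4 libraries of about 1000 cells, processed in 2 batches according to the labels. Top 1, top 2, bottom 1 and bottom 2 belong to batch 1, and the other 4 libraries to batch 2. All groups share strain, age and tissue, and none received a treatment that the labels name. The labels do not name the property used for sorting, and they do not tell whether animals were pooled or whether each library had its own animals. The p-values therefore describe scatter among the 8 libraries, part of which may be technical.

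Beta cells make proinsulin in the ER in very large amounts, and chaperones there hold nascent chains, fold them and keep misfolded ones from leaving. When unfolded proteins accumulate, 3 sensors are released from the chaperone BiP: IRE1 splices the mRNA of Xbp1 into the form that encodes an active transcription factor, ATF6 is cut in the Golgi to release another, and PERK slows translation. XBP1 and cleaved ATF6 then raise chaperone genes, many of them through a short promoter sequence, the ER stress response element (ERSE), which binds ATF6 or XBP1 together with the general factor NF-Y. Gene counts as deposited do not separate spliced from unspliced Xbp1, so the activity of IRE1 was not measured.

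The promoter sequences below show this element in the genes themselves. RefSeq promoters on GRCm38.p6 were at hand for 9 of the 10 genes, all but Hyou1, and each window covered 250 bases before and 50 after the annotated start. Both strands were searched for ERSE, the letters CCAAT and CCACG with any 9 bases between them, for the compact form ERSE-II, ATTGG and CCACG with any 1 base between them, and for the unfolded protein response element, written TGACGTGG. Capitals mark the fixed letters of each match, and every sequence is given 5′ to 3′ on the strand of its gene.
Hspa5: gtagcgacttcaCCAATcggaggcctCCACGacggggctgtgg
Hsp90b1: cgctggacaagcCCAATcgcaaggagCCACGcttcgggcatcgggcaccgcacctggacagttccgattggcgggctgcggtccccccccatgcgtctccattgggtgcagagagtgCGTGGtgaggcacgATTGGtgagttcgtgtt
Calr: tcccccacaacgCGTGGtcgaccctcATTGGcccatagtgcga
Canx: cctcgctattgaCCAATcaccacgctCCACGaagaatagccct
Dnajc3: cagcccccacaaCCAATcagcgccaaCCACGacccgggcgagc
Herpud1: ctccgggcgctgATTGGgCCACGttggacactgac

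These stretches lie upstream of the annotated starts, at chr2:34772013-34772055 (plus strand) for Hspa5, chr10:86705521-86705668 (minus strand) for Hsp90b1, chr8:84847063-84847105 (minus strand) for Calr, chr11:50325788-50325830 (minus strand) for Canx, chr14:118937815-118937857 (plus strand) for Dnajc3 and chr8:94386365-94386399 (plus strand) for Herpud1. An exact ERSE was found in 5 of the 9 promoters, and in 37 of 27025 genes with a promoter in the table (0.137%). In Hsp90b1 it occurred at 2 places in opposite orientation, and in Calr it ran on the opposite strand. The compact ERSE-II was found in Herpud1 alone among the 9, and in 12 of all 27025 genes (0.0444%). No exact match to any of the 3 sequences was found in the windows of Dnajb9, Sdf2l1 and Xbp1. The third sequence, present in 193 of all genes (0.714%), matched none of the 9. The 5 letters CCACG alone was common, in 8 of the 9 promoters and in 35.5% of all genes. It lies inside the 2 ER stress elements, so these counts are not separate. A match describes the letters only, and binding was not measured here.

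**Figure D1:**
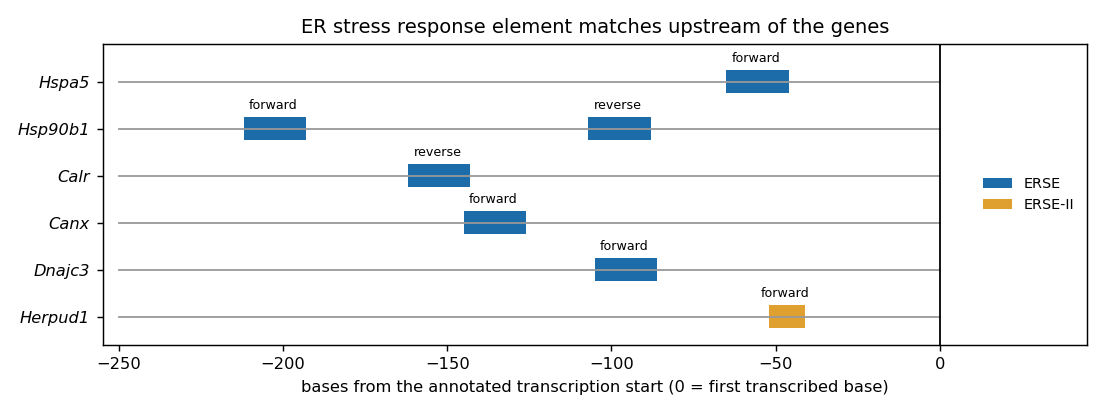
Positions of exact ERSE (blue) and ERSE-II (orange) matches in the 250 bases before the annotated start of 6 genes, with the distance from the start in bases on the x axis and the orientation written above each match. Hsp90b1 has 2 matches, and the ERSE of Hspa5 and the ERSE-II of Herpud1 lie nearest to the start, at 65 and 52 bases before it (first base).

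Total estimated counts ranged from 6657620 to 11262400 per library, and levels are given in CPM, the usual count scaled to library size, here after TMM scaling, a method that corrects library totals for a few genes taking a large share. Insulin (Ins1 and Ins2) took 26.6% to 40.1% of the counts in top and 2.75% to 7.16% in bottom. The TMM factors were 0.857 to 0.954 in top, 0.987 and 0.958 in bottom 1 and bottom 2, and 1.32 and 1.24 in bottom 3 and bottom 4. The part of insulin in these factors was not tested. Beta cell markers summed to 341209 to 501517 CPM in top and 38416 to 80712 CPM in bottom, with 9 of 10 detected in each and Mafa at 0 in all libraries. The bottom libraries go against the beta cell label in part, since the summed level of Gcg, Sst and Ppy, the hormones of other islet cells, was above that of Ins1 and Ins2 in each bottom library and below it in each top library. Markers of delta cells, which make somatostatin, summed to 2666 to 5309 CPM in top and 33218 to 57450 CPM in bottom. Those of PP cells, which make pancreatic polypeptide, summed to 1309 to 2522 CPM in top and 11962 to 91519 CPM in bottom, so that both lists separated the populations in every library. Alpha cell markers were high in both, at 65009 to 137292 CPM in top and 28918 to 141311 CPM in bottom. In bottom 2 glucagon (Gcg) stood at 136344 CPM and Ins2 at 57298 CPM. Fibroblast markers summed to 0.249 to 12.3 CPM in top and 3.25 to 763 CPM in bottom. All differences between bottom and top below therefore stand beside a difference in islet hormones, and its part in them was not tested. Other markers differed within bottom by batch: the 12 intestinal markers summed to 29581 and 6646 CPM in bottom 1 and bottom 2, against 40.1 and 13.3 CPM in bottom 3 and bottom 4 and 49.2 to 1854 CPM in top, highest in top 1 (1854) and top 4 (877). The 9 markers of goblet and Paneth cells, which are secretory cells rich in ER, summed to 1875 and 958 CPM in bottom 1 and bottom 2 and to 0.919 to 13.1 CPM in the other 6 libraries, where Muc2 was at 0. Not all markers of this list rose in both: Spdef was at 4.66 CPM in bottom 1 and at 0 in bottom 2. Agr2 was at 131 and 0.464 CPM, and Lyz1 and Defa24 stood at 1.02 CPM or less in both. The 13 acinar markers summed to 55.1 to 311 CPM in top and 369 to 1824 CPM in bottom, highest in bottom 2, with Rbpjl at 0 in every library except bottom 4. The part of these cells in the values below was not tested. For the 10 genes, results are also given without bottom 1 and bottom 2 where they moved. For the further pathway genes, differences are given by batch instead. In such bulk libraries, fewer cells of a type and less RNA per cell cannot be told apart.

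None of the 10 genes passed the test between the populations, although 8 of 10 had lower estimates in bottom. The edgeR quasi-likelihood test with batch as a covariate called 0 of 10 at an adjusted p under 0.05, beside 0.444% of all tested genes (0.282% higher and 0.162% lower in bottom). DESeq2, which called 5.03% of all genes, and limma-trend, which called 1.17%, also called 0 of 10. At an unadjusted p under 0.05 edgeR passed 3 of 10 (Calr, Hyou1 and Dnajb9), beside 10.3% of all tested genes. DESeq2 passed 4 (14.8% of all genes) and limma-trend 5 (12.8%). The median log2 fold change of bottom over top was -0.50 for the 10 genes and 0.0033 over all tested genes, of which 49.9% were below 0. The size depended on the scaling: with plain library totals the median of all genes moved to 0.32 and that of the 10 genes to -0.19, with 6 of 10 below 0. The distance between the 2 medians was -0.51 with TMM, with plain totals, with another scaling factor (RLE) and with hormone genes left out. A scaling factor acts on all genes of a library alike, so these 4 settings could hardly change the distance and do not test it. The choice of libraries did change it. The distance was -0.69 in batch 1 alone, -0.25 in batch 2 alone and -0.26 without bottom 1 and bottom 2, where the median of the 10 genes was -0.22. With single libraries left out it lay between -0.65 (without top 3) and -0.39 (without bottom 1). By TMM-scaled CPM, 3 of the 10 genes (Calr, Sdf2l1 and Hyou1) had all bottom libraries below all top libraries, beside 7.22% of all genes that did not overlap in either direction and 10.2% of the 2236 genes with at least the mean level of the lowest of the 10. With plain totals 0 of the 10 did (7.87% of all genes).

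**Figure D2:**
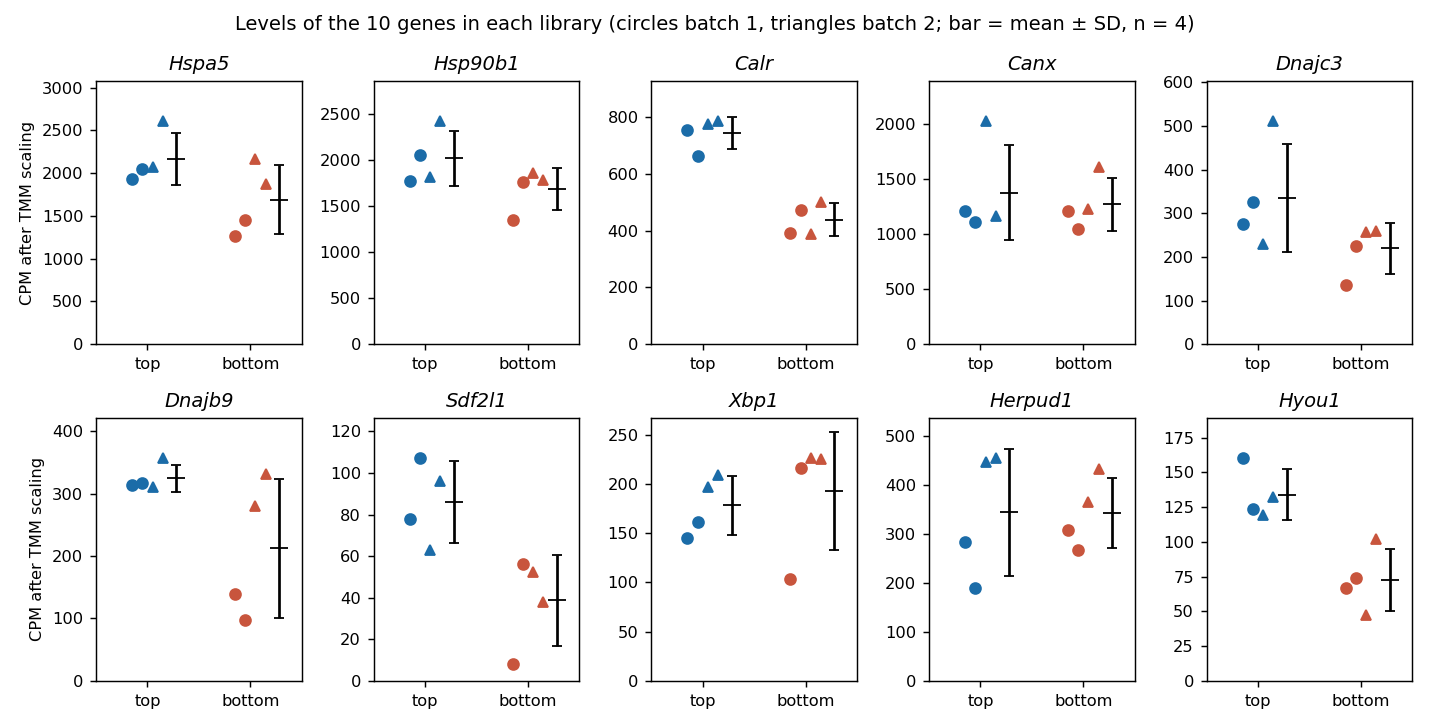
TMM-scaled CPM (y axis, linear from 0) of each gene in the 4 top (blue) and 4 bottom (red) libraries, circles for batch 1 and triangles for batch 2, with the mean and SD as a black bar. Calr, Sdf2l1 and Hyou1 are the panels in which the populations do not overlap, while Canx, Xbp1 and Herpud1 overlap widely.

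The 2 most abundant genes of the set were the general chaperones. Hspa5 encodes BiP, the HSP70 chaperone of the ER that also holds the stress sensors inactive. It stood at 1931, 2044, 2071 and 2607 CPM in top 1 to top 4 and at 1270, 1448, 2170 and 1876 CPM in bottom 1 to bottom 4. The bottom libraries of batch 1 were below all top libraries, while those of batch 2 lay within or just below the top range. The log2 fold change was -0.38 (SE 0.19, adjusted p = 0.544 by edgeR, n = 4), with a 95% interval of -0.80 to 0.04, and it was -0.21 (SE 0.22) without bottom 1 and bottom 2. Plain totals gave -0.07 (SE 0.22).

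Hsp90b1 encodes GRP94, the HSP90 of the ER, which finishes the folding of selected clients. Its levels were 1778, 2060, 1819 and 2425 CPM in top and 1345, 1765, 1858 and 1781 CPM in bottom. Only bottom 1 and top 4 stood apart, and the other 6 libraries lay between 1765 and 2060 CPM. Its log2 fold change was -0.26 (SE 0.19, adjusted p = 0.728 by edgeR, n = 4, interval -0.69 to 0.17), and its sign turned with plain totals (0.05). The counts of Hsp90b1 and Hspa5 kept a narrow ratio, 0.934 ± 0.0541 in top and 1.02 ± 0.156 in bottom (SD, n = 4).

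Hyou1 encodes GRP170, a large HSP70-like protein that exchanges nucleotide on BiP. It stood at 161, 124, 119 and 133 CPM in top and at 66.5, 74.2, 47.7 and 102 CPM in bottom, so that all bottom libraries were lower. The estimate was 1.84-fold lower in bottom (log2 fold change -0.88, SE 0.31, adjusted p = 0.342 by edgeR, n = 4, interval -1.59 to -0.18). The difference in mean log2 CPM was -1.001 in batch 1 and -0.85 in batch 2, and the log2 fold change was -0.75 (SE 0.44) without bottom 1 and bottom 2 and -0.58 (SE 0.33) with plain totals, where the populations overlapped.

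The lectin chaperones gave different values. Calr encodes calreticulin, the soluble lectin that binds glycoproteins with a single terminal glucose and buffers ER calcium. Top libraries had 755, 662, 777 and 786 CPM and bottom libraries 391, 474, 387 and 503 CPM. The populations were well apart, with the lowest top library above the highest bottom one. Calr had the smallest p of the 10, a level 1.70-fold lower in bottom (log2 fold change -0.76, SE 0.20, adjusted p = 0.190 by edgeR, n = 4, interval -1.22 to -0.31), which ranked 248 of all tested genes by p. The difference was -0.72 in batch 1 and -0.83 in batch 2, and the log2 fold change -0.81 (SE 0.26) without bottom 1 and bottom 2. DESeq2 gave an adjusted p of 0.0641 and limma-trend one of 0.0821, and over all 19 alternatives the adjusted p lay between 0.0641 and 0.847. With plain totals the log2 fold change was -0.45 (SE 0.21) and the populations overlapped.

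Canx encodes calnexin, the membrane-bound lectin with the same sugar specificity. It stood at 1214, 1111, 2029 and 1164 CPM in top and at 1211, 1046, 1229 and 1614 CPM in bottom. Apart from top 3 and bottom 4, all libraries lay between 1046 and 1229 CPM, with no order by population. The log2 fold change was -0.10 (SE 0.23, adjusted p = 0.928 by edgeR, n = 4, interval -0.61 to 0.40). It was 0.07 without top 3 and 0.22 with plain totals, so the sign depended on 1 library and on the scaling.

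Among the co-chaperones, Dnajc3 encodes p58IPK, a J-domain protein of the ER that hands clients to BiP. It stood at 276, 325, 229 and 511 CPM in top and at 135, 224, 258 and 260 CPM in bottom. Top 4 was the highest and bottom 1 the lowest, and top 3 lay within the bottom range. The log2 fold change was -0.63 (SE 0.30, adjusted p = 0.533 by edgeR, n = 4, interval -1.31 to 0.05). Without top 4 it was -0.40 (SE 0.32), without bottom 1 and bottom 2 -0.52 (SE 0.39), and with plain totals -0.32 (SE 0.32).

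Dnajb9 encodes ERdj4, a J-domain protein that restrains IRE1 through BiP and is a target of XBP1. It was nearly constant in top, at 314, 317, 311 and 357 CPM. In bottom it stood at 139 and 97.7 CPM in batch 1 and at 280 and 332 CPM in batch 2. The difference in mean log2 CPM was -1.44 in batch 1 and -0.13 in batch 2. The batch-by-population term of edgeR had an unadjusted p of 0.0208 for Dnajb9 (7.55% of all genes had one under 0.05) and an adjusted p of 0.590. Over all genes 0 such terms passed the adjusted threshold (0%). The overall log2 fold change was -0.77 (SE 0.31, adjusted p = 0.424 by edgeR, n = 4, interval -1.48 to -0.07), and it was -0.13 (SE 0.27) without bottom 1 and bottom 2, the libraries with the highest sums of intestinal and goblet cell markers. It was -0.51 without bottom 2 and -0.46 with plain totals.

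Sdf2l1, an ER protein that works with ERdj co-chaperones and BiP, had the largest estimate of the 10. Its levels were 77.6, 107, 62.8 and 96.3 CPM in top and 8.34, 56.3, 52.1 and 38.0 CPM in bottom. All bottom libraries were below all top ones, but the gap between bottom 2 and top 3 was small and bottom 1 stood far below the rest. Its estimate was 2.25-fold lower in bottom (log2 fold change -1.17, SE 0.54, adjusted p = 0.509 by edgeR, n = 4, interval -2.39 to 0.05). On the log2 scale it was -0.79 (SE 0.33) without bottom 1 and -0.82 (SE 0.43) without bottom 1 and bottom 2. Bottom 1 held 77 estimated counts of Sdf2l1, against 414 to 861 in the other libraries, and 0.657 counts of it per 100 of Hspa5, against 2.03 to 5.25 in the others.

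Exact two-sided permutation tests on log2 CPM, over 70 relabellings of the 8 libraries, add nothing to the separation of Calr, Sdf2l1 and Hyou1: groups of 4 that do not overlap give the smallest possible p, 0.0286, by construction, and 7.22% of all genes do not overlap. Within batches the smallest possible p is 0.0556, so that form cannot pass 0.05. With plain totals these 3 genes overlapped. The other 7 genes gave exact p values from 0.114 to 0.914, and none is adjusted.

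For the transcription factor and the degradation factor of the set the intervals reached well to both sides of 0. Xbp1 stood at 145, 162, 197 and 209 CPM in top and at 104, 217, 226 and 225 CPM in bottom. Bottom 1 was the lowest of all libraries and the other 3 bottom libraries the highest, so that 1 library set the spread. The log2 fold change was 0.11 (SE 0.27, adjusted p = 0.942 by edgeR, n = 4, interval -0.51 to 0.72), it was 0.28 (SE 0.22) without bottom 1 and 0.42 (SE 0.28) with plain totals, and it turned to -0.11 without bottom 2.

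Herpud1 encodes a membrane protein of the ER-associated degradation complex and carries the ERSE-II shown above. It stood at 284, 190, 446 and 455 CPM in top and at 308, 266, 365 and 432 CPM in bottom. Both populations were higher in batch 2 than in batch 1, by 0.95 in mean log2 CPM in top and 0.47 in bottom, and the populations themselves overlapped. The log2 fold change was 0.05 (SE 0.23, adjusted p = 0.970 by edgeR, n = 4, interval -0.48 to 0.57), it was -0.18 without bottom 1 and bottom 2, it was 0.36 with plain totals, and the sign turned in 6 of 19 alternatives.

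**Figure D3:**
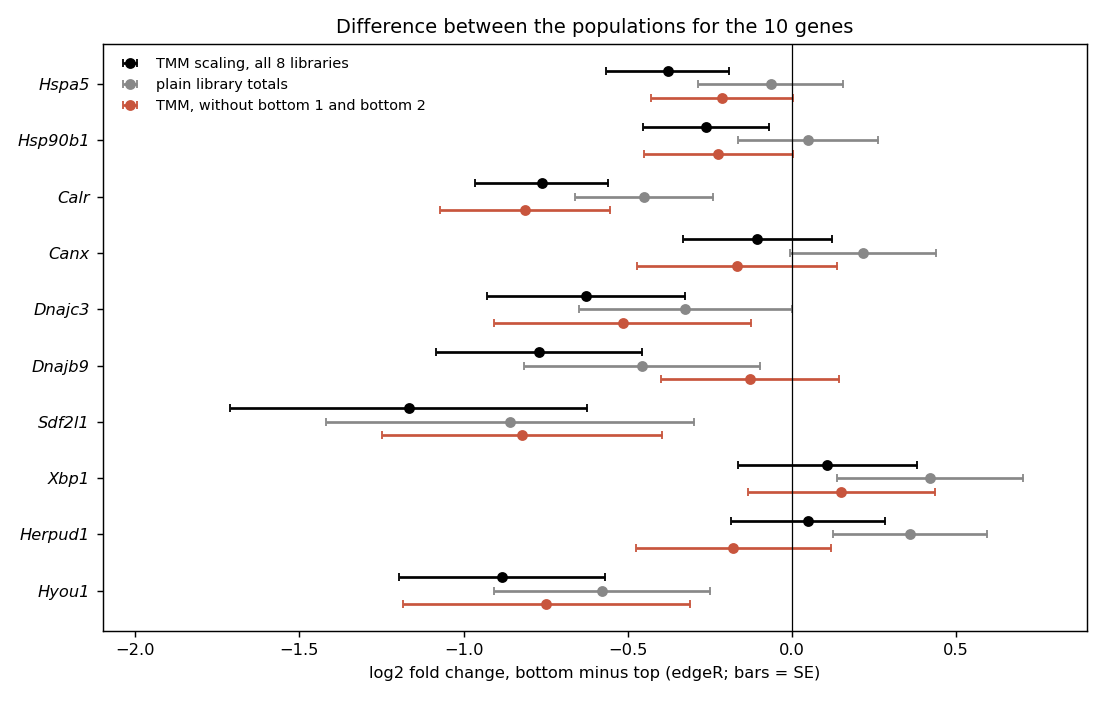
Log2 fold change of bottom over top with its SE (x axis) for each gene, with TMM scaling and all libraries (black), with plain library totals (grey), and without bottom 1 and bottom 2 (red). Grey points lie to the right of black ones for all 10 genes, and the red point of Dnajb9 lies at -0.13 against -0.77 for the black one.

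Side by side, the 5 genes with an exact ERSE had log2 fold changes of -0.76 (Calr), -0.63 (Dnajc3), -0.38 (Hspa5), -0.26 (Hsp90b1) and -0.10 (Canx). The 3 genes with a promoter but no exact match had -1.17 (Sdf2l1), -0.77 (Dnajb9) and 0.11 (Xbp1), and Herpud1 with its ERSE-II had 0.05. The ranges of these groups overlap, and they were not tested against each other.

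Counts of the 10 genes were far less different between the populations than counts of insulin. Summed, they took 0.622%, 0.609%, 0.709% and 0.834% of all counts in top 1 to top 4 and 0.491%, 0.543%, 0.907% and 0.890% in bottom 1 to bottom 4. The populations overlapped, and in both the libraries of batch 2 were the higher ones. Of the counts left after insulin was removed their share was 1.04% ± 0.114 for top and 0.750% ± 0.240 for bottom (mean ± SD, n = 4). By this share the populations narrowly did not overlap, with 0.966% in the lowest top library and 0.959% in the highest bottom one. For every 100 insulin counts there were 1.71, 1.52, 2.66 and 2.69 counts of the 10 genes in top. In bottom there were 17.9, 8.22, 18.8 and 12.4, and the lowest of these was above the highest top value. Insulin is the denominator of this ratio and had a share of 33.5% ± 5.92 for top and 5.34% ± 1.99 for bottom (mean ± SD, n = 4), so the ratio is a description with no test. For Hspa5 alone the value was 0.600 ± 0.173 per 100 insulin counts in top against 3.96 ± 1.65 in bottom (mean ± SD, n = 4).

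**Figure D4:**
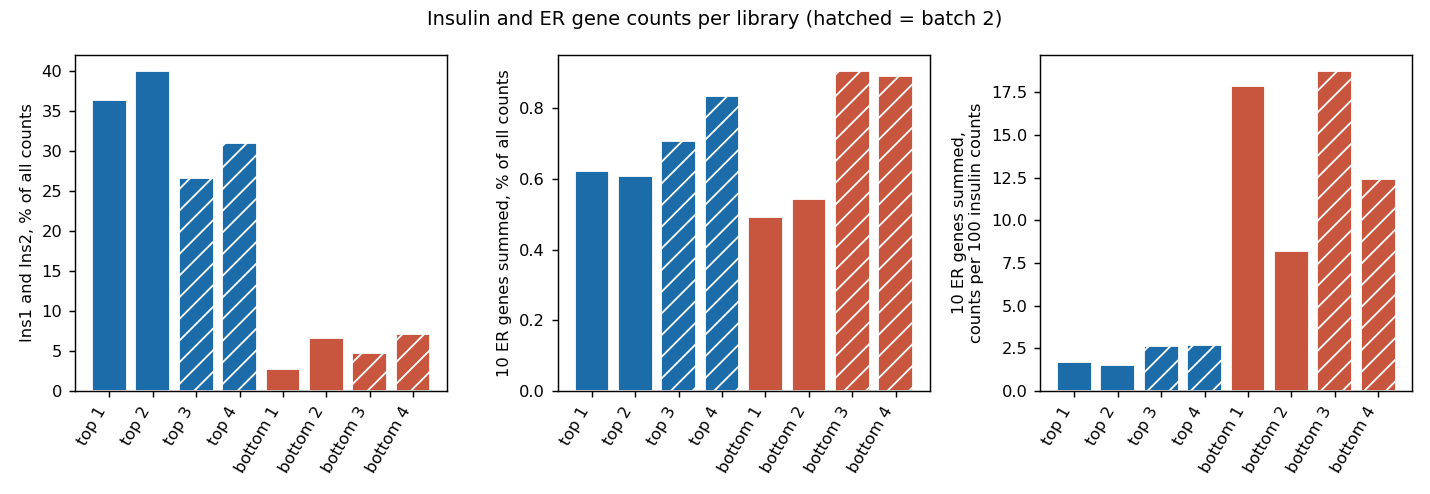
Bars from 0 for each library (top blue, bottom red, batch 2 hatched): insulin as a percentage of all counts, the 10 ER genes summed as a percentage of all counts, and the 10 genes per 100 insulin counts. Insulin is at 26.6% or more in top and at 7.16% or less in bottom, while the summed ER genes lie between 0.491% and 0.907% in all libraries.

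Per kilobase of the longest coding transcript in GENCODE M21, the order of levels was led by Hsp90b1, at 715 ± 105 CPM per kb in top and 597 ± 82.0 in bottom, and Hspa5, at 589 ± 82.3 and 461 ± 111 (SD, n = 4). The ranges of mean ± SD of these neighbours overlapped in both populations, and per kilobase of coding sequence alone Hspa5 was first in both. Calr (341 ± 26.1) and Canx (322 ± 102) followed in top and did not differ beyond their spread. In bottom Canx was ahead, at 298 ± 56.2 against 201 ± 26.9 CPM per kb for Calr. Herpud1 came next at 176 ± 66.2 and 176 ± 36.9 CPM per kb, and then Dnajb9 in top (132) and Xbp1 in bottom (90.7). Sdf2l1 (77.6 and 34.9 CPM per kb) and Dnajc3 (65.2 and 42.7) stood below them, and Hyou1 was last in both populations, at 29.9 ± 4.12 and 16.2 ± 5.02 CPM per kb.

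Across the 8 libraries, after each gene's mean was removed, 5 genes followed Hspa5 most closely among 2781 other genes with at least 50 CPM. They were Etnk1, an ethanolamine kinase, Gng4, a G protein gamma subunit, Ssr4, a subunit of the translocon-associated protein complex of the ER, Hsp90b1 itself, and Eif3h, a translation initiation factor. Their root mean square differences from Hspa5 were 0.133 to 0.155 on the log2 scale. Of the other members Dnajc3 ranked 117, Xbp1 229, Calr 241, Canx 417, Herpud1 540, Dnajb9 543, Hyou1 946 and Sdf2l1 2119. The profile of Sdf2l1 was thus among the less similar ones, at a difference of 0.86, and the SD of its log2 CPM over all libraries was 1.15, against 0.24 for Hsp90b1 and 0.33 for Hspa5. All these likenesses share the same libraries and batches.

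The wider pathway was read from lists of 57 further genes, of which 55 were tested. In edgeR 0 rose and 0 fell, beside 0.444% of all tested genes, and 11 had an unadjusted p under 0.05, beside 10.3% of all. DESeq2 called 4 (Asns, Atf3, Lman1 and Uggt1), beside 5.03% of all, and limma-trend called 0, beside 1.17%. Of the 55, 43 had a negative log2 fold change, and the median was -0.46. The signs and medians of the lists, here and below, are with TMM scaling. With plain totals the median of all tested genes moved from 0.0033 to 0.32, and the lists were not counted again. They were also not counted again without bottom 1 and bottom 2, the libraries with the highest intestinal marker sums. Among sensors and their regulators 8 of 9 genes were tested, and all 8 estimates were negative with a median of -0.55. Atf6, the sensor that becomes a transcription factor, stood at 104 ± 16.2 CPM in top against 61.9 ± 23.1 in bottom (log2 fold change -0.75, SE 0.34, adjusted p = 0.505 by edgeR, n = 4). Mbtps2, the protease that releases it, was uneven, at 8.22 to 34.4 CPM in top and 1.67 to 41.2 in bottom (log2 fold change -1.03, SE 1.33, and from -3.19 to 1.08 over the alternatives). The difference in mean log2 CPM of Mbtps2 was -3.18 in batch 1 and 0.11 in batch 2, and that of Atf6 was -0.69 and -0.90. Ern1, which encodes IRE1, was too low to test, with 14.4 CPM in bottom 2 and under 1 CPM in the other libraries.

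In the calnexin and calreticulin cycle, the folding loop that Calr and Canx serve, 7 of 8 estimates were negative with a median of -0.76. Uggt1, the glucosyltransferase that returns unfolded glycoproteins to both lectins, stood at 159, 170, 156 and 157 CPM in top and at 31.7, 62.0, 63.6 and 86.0 CPM in bottom. The top libraries were close to each other, and all bottom libraries were lower (log2 fold change -1.44, SE 0.33, adjusted p = 0.115 by edgeR, n = 4, range 0.00360 to 0.741 over 19 alternatives). Lman1, a lectin that carries glycoproteins out of the ER, stood at 256 ± 56.9 CPM in top against 115 ± 31.2 in bottom, also without overlap (log2 fold change -1.17, SE 0.25, adjusted p = 0.101 by edgeR, n = 4, range 0.00758 to 0.755 over 19 alternatives). The difference in mean log2 CPM of Uggt1 was -1.88 in batch 1 and -1.08 in batch 2, and that of Lman1 was -1.02 and -1.32. Of these 8 genes, 3 had bottom libraries below all top libraries, beside 7.22% of all genes apart in either direction.

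Among 14 tested further chaperones, co-chaperones and targets, 9 were negative with a median of -0.29. Pdia6, a disulfide isomerase, had mean levels of 552 ± 183 CPM in top against 305 ± 111 in bottom (log2 fold change -0.80, SE 0.30, adjusted p = 0.366 by edgeR, n = 4). Manf, a small ER protein released under stress, had mean levels of 372 ± 71.7 CPM in top against 221 ± 48.8 in bottom (log2 fold change -0.74, SE 0.27, adjusted p = 0.353 by edgeR, n = 4). Both differed more in batch 1: the difference in mean log2 CPM was -1.23 in batch 1 and -0.50 in batch 2 for Pdia6, and -1.11 and -0.41 for Manf. In ER-associated degradation 14 of 17 were negative with a median of -0.46. Edem1, which marks misfolded glycoproteins for disposal, had mean levels of 81.0 ± 19.0 CPM in top against 37.2 ± 17.5 in bottom (log2 fold change -1.17, SE 0.36, adjusted p = 0.275 by edgeR, n = 4), and Herpud2, the relative of Herpud1, had 31.9 ± 7.55 CPM in top against 17.0 ± 8.92 in bottom (log2 fold change -0.96, SE 0.60, adjusted p = 0.674 by edgeR, n = 4). By batch (1, then 2), the differences in mean log2 CPM were -1.38 and -1.01 for Edem1, and -1.70 and -0.59 for Herpud2.

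The PERK arm was mixed, with 5 of 8 estimates negative and a median of -0.26. Asns, the asparagine synthetase, stood at 94.1 ± 26.9 CPM in top against 33.3 ± 16.1 in bottom (log2 fold change -1.51, SE 0.42, adjusted p = 0.213 by edgeR, n = 4). Its difference in mean log2 CPM was -1.65 in batch 1 and -1.52 in batch 2. Atf3, a stress-induced transcription factor, stood at 212, 233, 706 and 566 CPM in top and at 859, 779, 800 and 826 CPM in bottom. Its bottom libraries were all higher and close to each other, and the top libraries of batch 1 were the low ones. The log2 fold change was 1.12 (SE 0.33, adjusted p = 0.241 by edgeR, n = 4), between 0.35 and 1.85 over the alternatives. The difference in mean log2 CPM was 1.88 in batch 1 and 0.36 in batch 2, and the batch-by-population term had an unadjusted p of 0.0039 and an adjusted p of 0.499 in edgeR. Chac1, which degrades glutathione, stood at 15.8 to 26.6 CPM in top, at 1.95 and 0.278 CPM in bottom 1 and bottom 2, and at 32.7 and 24.6 CPM in bottom 3 and bottom 4. Its log2 fold change was -1.72 (SE 1.15) and lay between -3.90 and 0.34 over the alternatives. In both Chac1 and Dnajb9 the bottom libraries of batch 1 were the low ones. The batch-by-population term of Chac1 had an unadjusted p of 0.0176 and an adjusted p of 0.570 in edgeR.

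**Figure D5:**
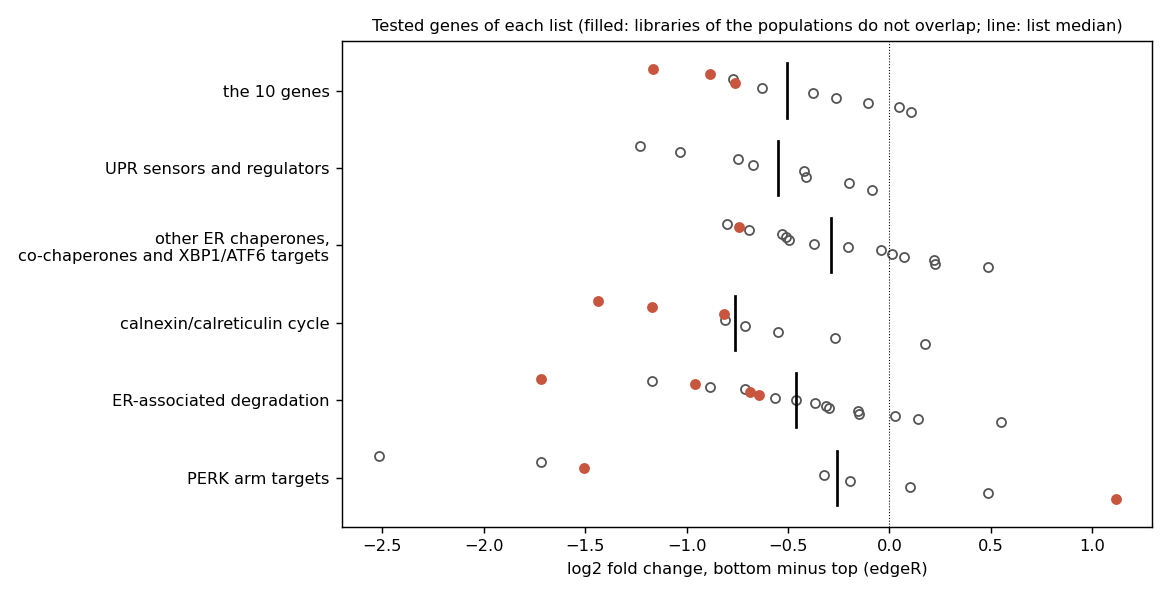
Log2 fold change of bottom over top (x axis) for each tested gene of the 10 and of 5 further lists, with a vertical line at each list's median. Filled red points are genes whose libraries do not overlap between the populations, and the medians lie between -0.76 and -0.26.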

How the data were processed

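The authors deposited expected counts, estimated reads per gene from RSEM, with RSEM, edgeR and mm9 named in the submitters' processing notes. Neither aligner, annotation nor versions are given there. The series table matched the tables per library exactly (largest difference 0), and 34.8% of values were not whole, so all were rounded. RSEM divides reads that several genes share, so genes with close relatives are less certain. edgeR 4.0.16 (R 4.3.3) tested bottom against top in all 8 libraries with TMM scaling, filterByExpr and batch as a covariate, with Benjamini-Hochberg adjustment over 11721 genes. The SE is the log2 fold change divided by the root of the F statistic. DESeq2 1.42.0 and limma 3.58.1 (prior count 2) served as alternatives. The 10 genes and the gene lists were chosen with earlier results of these data known. From each list the text names genes called by edgeR, and otherwise the 2 with the largest absolute log2 fold change and at least 10 CPM, and the 5 genes most like Hspa5. Also named are genes with unusual values or calls in another tool, chosen after their values were seen. Promoters were matched by symbol to RefSeq (GRCm38.p6), a build other than that of the files, and no coordinates were converted.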

Additional observations from a re-analysis of the deposited data

Results flagged for a closer look

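In 22 groups of 4 libraries (each of the 10 genes and their sum, in each population), 3 held 1 library that stood apart by Dixon's test at the 95% level, and chance alone marks about 1 in 20 such groups. Canx stood at 2029 CPM in top 3, against 1111 to 1214 CPM in the other top libraries. Dnajb9 stood at 357 CPM in top 4, against 311 to 317 CPM in the other top libraries. Xbp1 stood at 104 CPM in bottom 1, against 217 to 226 CPM in the other bottom libraries.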

How the results depend on the processing

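In each of 19 alternatives 0 of the 10 genes were called, and Hspa5, Calr, Dnajc3, Dnajb9, Sdf2l1 and Hyou1 kept a negative log2 fold change. Plain library totals turned Hsp90b1 (0.049) and Canx (0.22). Herpud1 turned without the batch term (-0.0052), in batch 2 alone (-0.16) and without bottom 1 and bottom 2 (-0.18, chosen after seeing the data). With single libraries left out, the ranges were -0.25 to 0.073 for Canx, -0.11 to 0.28 for Xbp1 and -0.12 to 0.13 for Herpud1, -0.85 to -0.40 for Dnajc3, -0.98 to -0.51 for Dnajb9 and -1.71 to -0.79 for Sdf2l1. The cause of these turns was not tested. The 52 calls over all genes became 204 without the low-count filter, 589 with DESeq2, 137 with limma-trend, 32 without the batch term, 2 in each batch alone, and 8 to 60 with single libraries left out. Pathway genes called were 4 with DESeq2. Interactions called over all genes were 71 without the low-count filter. With the replicate block (batch and title number) edgeR called 0 genes, Xbp1 was at -0.14 and Herpud1 at -0.088. Only libraries numbered 1 share a block with the other population, and their deviations correlated at 0.0874 in batch 1 and 0.00050 in batch 2. With only 1 such contrast in each batch, these values cannot tell whether the number pairs libraries. Of the calls, 63.5% were higher in bottom with TMM and 77.1% with plain totals. With 4 libraries in each population, the precision of each estimate depends on the spread between libraries, for which edgeR also uses the spread of other genes.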
